A study of Mus musculus with 24 samples.

Results

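RNA-seq of mouse cells under reprogramming was used to compare control cells at day 5 with control cells at day 7 that were sorted as X-GFP negative, that is, cells in which a fluorescent reporter on the inactive X chromosome was still silent after 2 more days. The comparison took in all genes with a mean above 10 normalized counts in the 4 libraries, which were 15225 of the 37315 genes in the table, with 2 of the 24 libraries of the series at day 5 and 2 at day 7. A normalized count is a number of reads divided by a size factor of its library, and levels are given in this unit throughout. All cells came from the PaX line, a female hybrid embryonic stem cell (ESC) line with 1 Mus musculus (X mus) and 1 Mus castaneus (X cas) X chromosome, in which X mus carries a GFP reporter in the Hprt gene and a truncated Tsix allele. The line also carries a doxycycline-inducible cassette of the reprogramming factors c-Myc, Klf4, Oct4 and Sox2 and a reporter of the Nanog promoter. Neural progenitor cells (NPCs) made from this line were reprogrammed on irradiated male mouse feeders with doxycycline, LIF and ascorbic acid, and the control cells never received interferon γ (IFNγ).

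The design limits what the comparison can separate. Day 5 cells were all cells sorted for the surface antigen SSEA1 with no gate on X-GFP, whereas day 7 cells were SSEA1 positive and X-GFP negative. Plates for day 5 were seeded more densely than plates for day 7. Time, gate and seeding density cannot be told apart, and the X-GFP–negative cells are not the same cells followed over time. The labels do not say whether the replicates came from separate cultures. The authors' methods call the replicates independent where they describe a pluripotency score, without naming the cultures. The p-values thus measure the spread between these samples, which may be technical. In bulk RNA, fewer cells of a type and less RNA per cell cannot be told apart.

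In a female cell 1 X chromosome is silenced by the noncoding RNA Xist, and this silencing is erased late in reprogramming, in cells that reach naive pluripotency. Reprogramming also rewires metabolism and the cell cycle: pluripotent cells divide rapidly with a high output of ribosomes, whereas oxygen shortage stabilizes hypoxia-inducible factors, which bind short ACGTG or GCGTG elements and raise genes of glucose uptake, glycolysis and blood vessel growth. Genes of ribosome assembly and of DNA replication are known targets of MYC and E2F factors, which act through CACGTG and TTTCCCGC elements.

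The libraries held 28448304 to 34794609 reads on genes, of which 19.09% to 20.71% of the normalized counts came from the mitochondrial genome. Log2 values of all tested genes correlated with a Pearson r of 0.992 between the day 5 libraries, 0.994 between the day 7 libraries and 0.944 to 0.965 across days, a description across genes, which are not independent replicates. A further property of the libraries runs along the comparison. Of 16247 genes with a mean above 10 over all 24 libraries, 166 were higher and 130 lower in every one of the 16 ESC, NPC and day 7 libraries than in every one of the 8 day 2 and day 5 libraries. With a gap of at least 2-fold the numbers were 9 and 0, and the 9 were mostly pseudogenes or copies of other genes. An identifier with no symbol, ENSMUSG00000092773, lay between 72.0 and 114.7 in the 8 libraries of days 2 and 5 and between 6570.0 and 11050.0 in the other 16, and Entpd4b and Fam177a were at 1.02 or below in the former and at 12.6 or above in the latter. Day 5 and day 7 libraries fell on different sides of this division, so that it cannot be told apart from the day. Taking these 296 genes out of the calls, with no new fit, left 5055 genes called higher and 4368 called lower. These counts do not show whether the division also moved the other genes, which was not tested.

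Chromosome 8 stood apart from the other autosomes in the day 5 libraries and in the change to day 7. Over 546 protein-coding genes of chromosome 8 with more than 50 normalized counts in every library, the median log2 ratio to the ESC mean, relative to all autosomes, was −0.29 and −0.39 in the day 5 control libraries and −0.13 and −0.10 in the day 7 X-GFP–negative control libraries. It lay between −0.10 and −0.08 in day 2 control cells and between −0.02 and 0.00 in NPCs. The other autosomes ran from −0.11 to 0.13 and from −0.16 to 0.07 in the day 5 control libraries. In the day 7 X-GFP–negative control libraries they ran from −0.24 to 0.17 and from −0.21 to 0.17. Chromosome 8 was thus outside their range at day 5 and inside it in the day 7 X-GFP–negative, day 2 control and NPC libraries. Of the 803 genes of chromosome 8 tested, 46.6% were called higher and 19.3% lower, with a median log2 fold change of 0.24, against medians of −0.03 to 0.13 on the other autosomes. Genes of chromosome 8 are marked where they are named, and the part of this shift in their values was not tested.

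**Figure D1:**
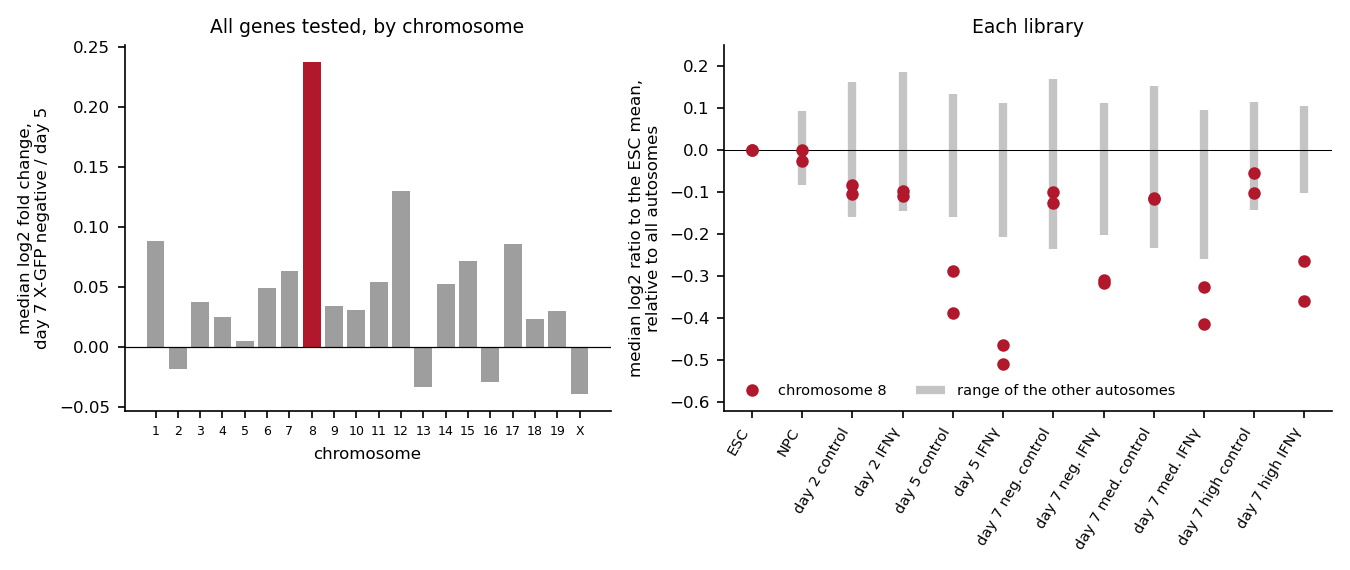
Left, median log2 fold change from day 5 to day 7 X-GFP–negative control cells of all genes tested on each chromosome, with chromosome 8 in red at 0.24. Right, median log2 ratio to the ESC mean over protein-coding genes of chromosome 8 (red points, 1 per library), relative to all autosomes, with the range of the other autosomes as grey bars; the day 5 control libraries lie at −0.29 and −0.39 and the day 7 X-GFP–negative control libraries at −0.13 and −0.10.

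Most of the transcriptome moved between the populations. At an adjusted p under 0.1 in limma's moderated test, 63.7% of the genes were called, 5211 genes or 34.2% higher and 4489 genes or 29.5% lower at day 7. Changes of at least 2-fold were more often increases: 1697 genes or 11.1% were higher and 872 genes or 5.73% lower by that much, and at least 8-fold it was 68 against 5. The median log2 fold change of all genes was 0.04. Rescaling the libraries to the same total moved it by 0.08 to −0.04, and the share of calls that were higher from 53.7% to 46.9%. The counts of called genes stayed within 1.5 times in every alternative. The 2 libraries of one day did not overlap with those of the other in 80.3% of the genes, 6520 with day 7 above and 5704 with day 7 below, so that a gene with separate days is the usual case here. A single gene tested on its own by an exact permutation test of 2 against 2 libraries could not reach a two-sided p below 0.333, so that every call rests on the spread shared across genes. Counts of list members below are to be read beside the shares of all genes, 34.2% higher and 29.5% lower. Fold changes are on the scale of log2(normalized count + 1), with the standard error (SE) after ±, and adjusted p-values cover all genes tested.

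**Figure D2:**
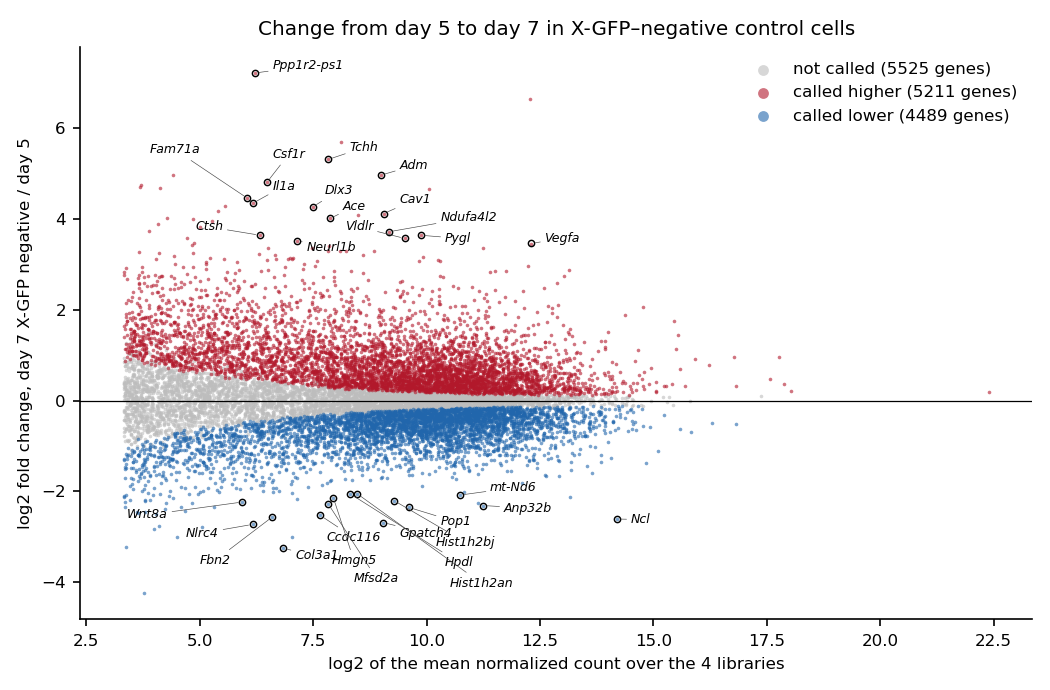
Log2 fold change from day 5 to day 7 X-GFP–negative control cells (vertical axis) against the log2 mean normalized count over the 4 libraries (horizontal axis), 1 point per gene, for 15225 genes. The 15 named genes with the largest increases and the 15 with the largest decreases are circled, and the increases reach further from 0, to 7.22 in Ppp1r2-ps1 and 5.32 in Tchh, than the decreases, to −3.26 in Col3a1.

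Genes induced by low oxygen rose together. All 16 genes of the hypoxia list were called higher, against 34.2% of all genes, and 14 of them at least 2-fold, against 11.1%. Their median log2 fold change was 2.37, against 0.04 over all genes. Adm, which encodes the vessel-dilating peptide adrenomedullin (chr7:110627661-110629820, GRCm38), was at 51.3 and 17.8 normalized counts at day 5 and 1075 and 893 at day 7 (log2 fold change 4.97 ± 0.41, adjusted p = 7.08e-05). Vegfa, the main growth factor of blood vessels (chr17:46016993-46032369), was at 1259.9 and 556 normalized counts at day 5 and 9727 and 8758 at day 7 (log2 fold change 3.46 ± 0.31, adjusted p = 9.11e-05). Its mean was 908 ± 498 at day 5 and 9243 ± 685 at day 7 (SD, n = 2). In both genes the second day 5 library was lower than the first by over 2-fold, and both day 7 libraries lay far above both. Without day 5 replicate 2 the log2 fold changes were 4.23 in Adm and 2.87 in Vegfa, and without day 5 replicate 1 they were 5.71 and 4.05.

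The enzymes and sensors of the list behaved alike. P4ha2, a prolyl 4-hydroxylase subunit that modifies collagen, was at 343 and 185 normalized counts at day 5 and 2405 and 1952 at day 7 (log2 fold change 3.10 ± 0.25, adjusted p = 7.14e-05), and P4ha1, its paralog, at 2657 and 1686 at day 5 and 13399 and 12254 at day 7 (2.60 ± 0.18). Bnip3, a mitochondrial receptor for mitophagy, was at 1446 and 835 normalized counts at day 5 and 8852 and 8306 at day 7 (log2 fold change 2.96 ± 0.21, adjusted p = 5.25e-05). Slc2a1, the glucose transporter GLUT1, was at 13132 and 8784 normalized counts at day 5 and 47505 and 41843 at day 7 (log2 fold change 2.05 ± 0.16, adjusted p = 6.44e-05). The libraries of the days did not overlap in any of them, as in 80.3% of all genes. Egln3, an oxygen-sensing hydroxylase that marks hypoxia-inducible factors for decay and is itself induced by them, rose by 2.85 ± 0.30, and Egln1, the related main oxygen sensor (chromosome 8), by 1.93 ± 0.12. Ndrg1, a differentiation and stress gene, rose by 2.88 ± 0.18, Ankrd37 (chromosome 8) by 2.14 ± 0.26, and Car9, a carbonic anhydrase of hypoxic cells, by 2.73 ± 0.40 from 3.37 and 6.22 to 36.2 and 36.5 normalized counts. The smallest changes were those of Pdk1, the kinase that shuts pyruvate dehydrogenase (0.62 ± 0.07), and Kdm3a, a histone demethylase (0.75 ± 0.06).

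In the other control populations these genes were not as high. Relative to day 5, the median log2 level of the 16 genes was −0.90 in ESCs, −0.85 in NPCs and −0.88 at day 2, and at day 7 it was 2.31 in the negative, 1.70 in the medium and 1.14 in the high population. All 16 exceeded their ESC and NPC means in X-GFP–negative cells, and 13 of 16 decreased in order from negative over medium to high. Among all 1697 genes higher at least 2-fold, 66.5% were above both the ESC and NPC means and 73.3% above both other day 7 populations. The share of all genes that decreased in that order is not given, here or for the lists below. Vegfa stood at 1322 in ESCs and 2099 in NPCs, and on average 5022 in the medium and 3770.4 in the high population. These levels come from libraries on both sides of the division described above, and ESCs and NPCs were on the side of day 7.

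Promoters of 4 of these genes are shown as examples picked after values were seen, with the element bound by hypoxia-inducible factors marked. They are not the 4 largest changes. Adm and Vegfa rose more than all 4, and Ndrg1, Egln3 and Car9 more than P4ha1 and Slc2a1. The windows run from 250 bases before to 50 after the RefSeq start on GRCm38.p6, 5′ to 3′ along the gene, with ACGTG or GCGTG on either strand in capitals. They are those of Bnip3 (chr7:138909457-138909756, minus strand), P4ha2 (chr11:54100674-54100973, plus strand), Slc2a1 (chr4:119108495-119108794, plus strand) and P4ha1 (chr10:59323046-59323345, plus strand).
Bnip3: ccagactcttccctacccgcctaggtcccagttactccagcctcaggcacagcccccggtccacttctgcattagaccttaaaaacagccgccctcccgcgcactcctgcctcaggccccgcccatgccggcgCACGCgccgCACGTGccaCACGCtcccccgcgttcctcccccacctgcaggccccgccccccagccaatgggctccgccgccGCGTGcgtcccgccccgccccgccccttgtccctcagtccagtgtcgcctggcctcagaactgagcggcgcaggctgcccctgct
P4ha2: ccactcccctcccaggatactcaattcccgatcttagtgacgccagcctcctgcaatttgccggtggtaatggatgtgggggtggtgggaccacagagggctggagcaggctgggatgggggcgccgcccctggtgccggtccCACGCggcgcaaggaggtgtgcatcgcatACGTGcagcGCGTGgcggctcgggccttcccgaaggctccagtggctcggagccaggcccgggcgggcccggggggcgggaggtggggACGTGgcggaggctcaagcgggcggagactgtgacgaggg
Slc2a1: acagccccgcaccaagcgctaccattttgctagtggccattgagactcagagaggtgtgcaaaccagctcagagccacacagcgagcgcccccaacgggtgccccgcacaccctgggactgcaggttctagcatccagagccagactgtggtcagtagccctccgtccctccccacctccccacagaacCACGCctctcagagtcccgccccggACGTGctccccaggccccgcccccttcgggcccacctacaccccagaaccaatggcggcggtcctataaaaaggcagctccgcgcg
P4ha1: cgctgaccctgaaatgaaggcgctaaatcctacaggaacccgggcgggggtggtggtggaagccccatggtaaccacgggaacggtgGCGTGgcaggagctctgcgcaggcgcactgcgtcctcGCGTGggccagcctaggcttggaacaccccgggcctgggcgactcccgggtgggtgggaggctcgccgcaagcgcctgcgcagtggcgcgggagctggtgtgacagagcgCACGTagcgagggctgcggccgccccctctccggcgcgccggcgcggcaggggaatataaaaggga
Bnip3 held 5 matches, P4ha2 4, P4ha1 3 and Slc2a1 2, counting matches on each strand, so that CACGTG, which holds ACGTG on both strands, counts as 2. Of 20 promoters found for 14 genes of the list, 15 held at least 1, against 60.5% of 14027 promoters of tested genes and 43.8% of all 32851 promoters in the table. The element was also frequent on lists that moved the other way: 62 of 80 promoters of the ribosome assembly list described below held it, or 77.5%, and 14 of 22 of the DNA replication list, or 63.6%. A match is a description of the letters and not a binding site.

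Glycolysis rose with the hypoxia genes. Of 20 genes, 19 were called higher and 1 lower, 11 were higher at least 2-fold, and the median log2 fold change was 1.23. The rise of the list was shared by the day 7 control populations. Relative to day 5 its median log2 level was 1.22 in X-GFP–negative, 1.01 in medium and 0.86 in high cells. Only 6 of the 20 genes decreased in order from negative over medium to high. Pgk1, the X-linked phosphoglycerate kinase, was at 3509 and 3105 normalized counts at day 5 and 11840.3 and 11764 at day 7 (log2 fold change 1.84 ± 0.07, adjusted p = 1.36e-05), and its libraries lay close together within each day. Aldoc, an aldolase, rose by 2.35 ± 0.17, and Slc16a3, the lactate exporter MCT4, by 1.96 ± 0.12. The glucose transporter Slc2a3 rose by 1.75 ± 0.09 and Pfkp, a phosphofructokinase at the main control step, by 1.52 ± 0.07. Changes in the highly expressed Gapdh (0.32 ± 0.05) and Eno1 (0.31 ± 0.06) were small but past the threshold. The member that fell was Slc16a1, the lactate transporter MCT1, at 5746 and 6257 normalized counts at day 5 and 3851 and 4285 at day 7 (log2 fold change −0.56 ± 0.08, adjusted p = 0.000596). Pygl, the liver glycogen phosphorylase and not a list member, was among the largest increases of all genes, at 183 and 103 normalized counts at day 5 and 1816 and 1641 at day 7 (log2 fold change 3.64 ± 0.23, adjusted p = 4.16e-05), and Ndufa4l2, a mitochondrial protein that lowers complex I activity, at 109 and 58.6 at day 5 and 1091 and 1046 at day 7 (log2 fold change 3.72 ± 0.25, adjusted p = 4.91e-05). In both genes the second day 5 library was the lower one. Separate days were a condition for a gene to be named among the largest changes.

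**Figure D3:**
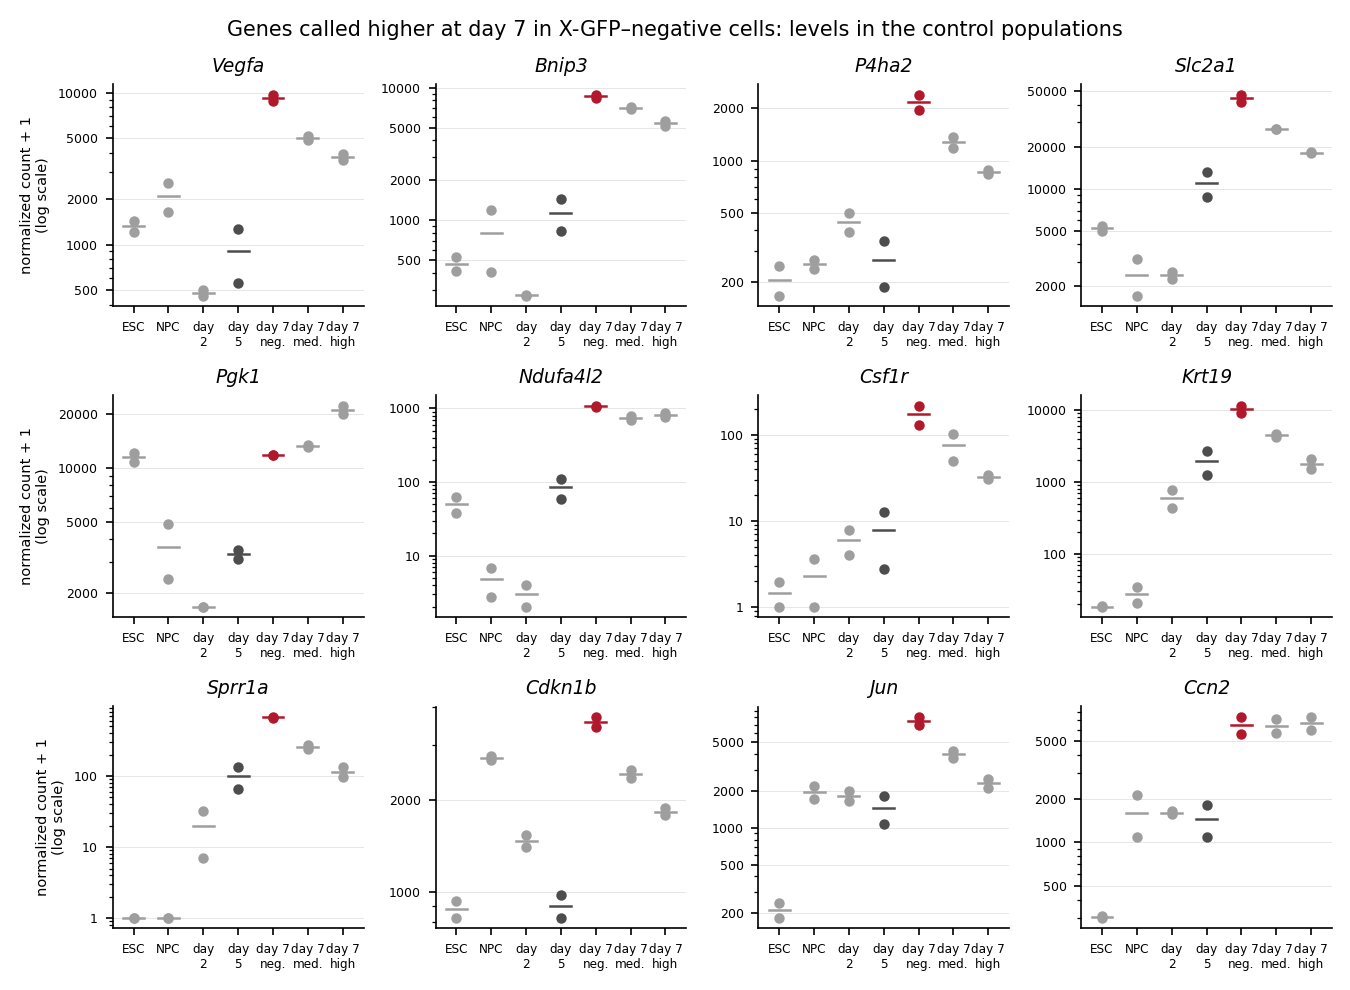
Normalized counts + 1 on a log axis of 12 genes called higher, in the control populations (ESC, NPC, day 2, day 5, and day 7 X-GFP negative, medium and high); points are libraries, 2 per population, and lines their means. Day 5 is in dark grey and day 7 X-GFP negative in red: Vegfa is highest in X-GFP–negative cells, whereas Pgk1 is higher in X-GFP–high cells and Ccn2 about level across the day 7 populations.

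Other genes among the 15 largest increases are known from several tissues. The top of the ranking, Ppp1r2-ps1, a processed pseudogene, had no read in either day 5 library and 137.1 and 159.9 normalized counts at day 7, at least 57.2-fold higher with the group's floor set at 3 reads per library. It was also one of the 9 genes that divide days 2 and 5 from the other libraries. Tchh, which encodes trichohyalin of the hair follicle (chr3:93442330-93449077), was at 11.8 and 8.88 normalized counts at day 5 and 452 and 441 at day 7 (log2 fold change 5.32 ± 0.22, adjusted p = 1.36e-05). Dlx3, a homeobox factor of epidermis and placenta, was at 26.1 and 10.7 normalized counts at day 5 and 352 and 332 at day 7 (log2 fold change 4.27 ± 0.36, adjusted p = 7.96e-05). Both genes were low at day 5 and far higher at day 7, and the change of Dlx3 was 4.88 without day 5 replicate 1 and 3.66 without day 5 replicate 2.

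Genes of signalling and of the cell surface made up most of the rest. Csf1r, the receptor for the macrophage growth factor CSF1, was at 11.8 and 1.78 normalized counts at day 5 and 216 and 129 at day 7 (log2 fold change 4.82 ± 0.64, adjusted p = 0.000508), with the second day 5 library far below the first. Il1a, the cytokine interleukin 1 alpha, was at 7.57 and 4.44 normalized counts at day 5 and 149 and 129 at day 7 (log2 fold change 4.35 ± 0.32, adjusted p = 5.69e-05). Cav1, the coat protein of caveolae, was at 101 and 31.1 normalized counts at day 5 and 1079.6 and 916 at day 7 (log2 fold change 4.12 ± 0.44, adjusted p = 0.000194). Separate days were a condition for naming these 3 genes, and in each the second day 5 library was the lowest. Ace, the angiotensin-converting enzyme, rose by 4.02 ± 0.42, Vldlr, a lipoprotein receptor, by 3.57 ± 0.19, Ctsh, a lysosomal protease, by 3.64 ± 0.62, Neurl1b, a ubiquitin ligase of Notch signalling, by 3.52 ± 0.29, and Fam71a by 4.46 ± 0.32. The size of some of these changes rested on the lower day 5 library: without day 5 replicate 2 they were 3.71 in Csf1r, 3.29 in Cav1, 3.25 in Ace and 2.56 in Ctsh, and without day 5 replicate 1 they were 5.92, 4.96, 4.78 and 4.73.

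Epithelial genes rose further. Of the 24 genes of the epithelial junction list, 20 were called higher and 1 lower, 8 were higher at least 2-fold, and the median log2 fold change was 0.82. Krt19, a keratin of simple epithelia, was at 2676 and 1238 normalized counts at day 5 and 11472 and 9141 at day 7 (log2 fold change 2.49 ± 0.30, adjusted p = 0.00031). Tjp3, a tight junction scaffold, was at 719.6 and 538 normalized counts at day 5 and 2333 and 2049 at day 7 (log2 fold change 1.81 ± 0.14, adjusted p = 6.12e-05), and Cldn4, a claudin of the same junctions, at 5056 and 4526 at day 5 and 13709.9 and 10920.3 at day 7 (log2 fold change 1.35 ± 0.11, adjusted p = 6.57e-05). In each gene the second day 5 library was the lowest of the 4. Epcam, an adhesion molecule of pluripotent cells and epithelia, rose by 0.84 ± 0.08, Dsp, the desmosomal plakin, by 0.87 ± 0.08 and Krt18 by 1.19 ± 0.13. Cdh1 (chromosome 8), the E-cadherin gene, was at 16261 and 16199.5 normalized counts at day 5 and 16618 and 16399 at day 7 (log2 fold change 0.02 ± 0.05, adjusted p = 0.718) and was not called. Esrp2 (chromosome 8), an epithelial splicing factor, fell, with values of 1630.2 and 1354 at day 5 and 930.4 and 1000.0 at day 7 (log2 fold change −0.62 ± 0.11, adjusted p = 0.00168), whereas its paralog Esrp1 rose by 0.89 ± 0.10. Of the 24 genes, 22 decreased in level from X-GFP–negative over medium to high cells at day 7.

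The epidermal list was divided. Of its 20 tested genes, 10 or 50.0% were called higher and 5 or 25.0% lower, against 34.2% and 29.5% of all genes. Of these, 8 were higher at least 2-fold, and the median was 0.22. Sprr1a, a precursor of the cornified envelope, was at 135 and 65.7 normalized counts at day 5 and 685 and 654 at day 7 (log2 fold change 2.82 ± 0.29, adjusted p = 0.000157). Krt7, a keratin of simple and glandular epithelia, was at 342 and 356 normalized counts at day 5 and 1401 and 1195 at day 7 (log2 fold change 1.89 ± 0.11, adjusted p = 3.52e-05), and Ppl, which encodes periplakin, rose by 1.31 ± 0.11. Krt17 was at 6747 and 3328 normalized counts at day 5 and 13436 and 12669 at day 7 (log2 fold change 1.46 ± 0.26, adjusted p = 0.00218), and here the day 5 libraries differed 2-fold between them. Lower calls included Krt14, a keratin of basal keratinocytes (−0.64 ± 0.09), Ivl, the late envelope protein involucrin (−0.95 ± 0.26), Sfn (−0.54 ± 0.09) and the desmosomal cadherin Dsg3 (−0.89 ± 0.14). Krt5, the basal partner of Krt14, was not called, at 36.2 and 46.2 at day 5 and 42.8 and 30.0 at day 7 (log2 fold change −0.18 ± 0.29, adjusted p = 0.615).

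Ribosome assembly genes were mostly lower. The list of 78 genes was drawn up after values had been seen, so that its counts describe these genes and test nothing. On it 70 genes were called lower and 1 higher, 37 were lower at least 2-fold, and the median log2 fold change was −0.98. Ncl, which encodes nucleolin of the nucleolus (chr1:86344719-86359400), was at 29316 and 35006 normalized counts at day 5 and 5102 and 5379.7 at day 7 (log2 fold change −2.61 ± 0.09, adjusted p = 1.36e-05), with a mean of 32161 ± 4024 at day 5 and 5241 ± 197 at day 7 (SD, n = 2). Pop1, a subunit of the RNase P and RNase MRP ribozymes, was at 1294 and 1334 normalized counts at day 5 and 235 and 278 at day 7 (log2 fold change −2.36 ± 0.11, adjusted p = 2.15e-05). Gpatch4, a nucleolar protein not on the list, was at 768 and 1059 normalized counts at day 5 and 109.7 and 176 at day 7 (log2 fold change −2.69 ± 0.24, adjusted p = 8.85e-05). Each of the 3 was several fold lower in both day 7 libraries, with a narrow spread in Pop1 and Ncl and a wider one in Gpatch4. Rrp12 fell by 1.73 ± 0.12, Mdn1, the giant ATPase of the large subunit, by 1.67 ± 0.15, Bop1 by 1.62 ± 0.13 and the snoRNP chaperone Nolc1 by 1.49 ± 0.09. The member called higher was Polr1c, a subunit shared by RNA polymerases I and III (0.28 ± 0.07).

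Relative to day 5, the median log2 level of the ribosome assembly list was 0.50 in ESCs, −1.08 in NPCs and −0.36 at day 2, and at day 7 −0.97 in X-GFP–negative, −0.56 in medium and −0.26 in high cells. The genes that code for ribosomal proteins did not fall with it. Of 20 ribosomal protein genes, 13 were called higher and the other 7 were not called, with a median of 0.19. Rescaled to the same total, 10 were called higher and 2 lower. Rpl13 (chromosome 8) rose by 0.79 ± 0.06 and Rps4x by 0.48 ± 0.05, while Rpl4 was not called, at 58535 and 57118 at day 5 and 57079.8 and 58354 at day 7. Ncl itself averaged 13882 in ESCs and 4639 in NPCs, both below its day 5 level.

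Genes of S phase fell as well. On the DNA replication list 22 of 25 genes were called lower and 3 were not called, 6 were lower at least 2-fold, and the median was −0.64. Tyms, which makes thymidylate, was at 1486 and 1719 normalized counts at day 5 and 453 and 587 at day 7 (log2 fold change −1.63 ± 0.14, adjusted p = 7.78e-05). Ccne1, the cyclin that starts S phase, was at 1506 and 1955 normalized counts at day 5 and 543 and 629 at day 7 (log2 fold change −1.55 ± 0.14, adjusted p = 8.9e-05). E2f1, the factor that drives genes of S phase, was at 382 and 441 normalized counts at day 5 and 139 and 151 at day 7 (log2 fold change −1.49 ± 0.14, adjusted p = 0.000113). In all 3 genes both day 7 libraries were far below both day 5 libraries, and separate days were found in 80.3% of all genes. Cdc6, which loads the replicative helicase, fell by 1.43 ± 0.10 and Rrm2, of ribonucleotide reductase, by 1.41 ± 0.10. The helicase subunits had smaller log2 fold changes, from −0.83 ± 0.10 in Mcm3 to −0.45 ± 0.07 in Mcm6. The mitosis list moved little: 16 of 22 genes were called lower and 2 higher, none at least 2-fold, with a median of −0.22, from Birc5 (−0.55 ± 0.08) to Hmmr (0.28 ± 0.06). The proliferation marker Mki67 fell by 0.30 ± 0.06.

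Histone genes of S phase moved in the same direction. The list of 53 replication-dependent histone genes was chosen after values had been seen. Its members were taken by symbol from the genes tested, and the pseudogene Hist3h2bb-ps (−1.15) is among those called lower. Many of these genes are near-identical copies whose reads may be split between them by the counting, so that single members are uncertain. On it 47 were called lower and 4 higher, 29 lower at least 2-fold, with a median of −1.07. Without day 7 replicate 1 only 2 were higher. Hist1h2bj was at 987 and 1055 normalized counts at day 5 and 192 and 253 at day 7 (log2 fold change −2.21 ± 0.15, adjusted p = 4.4e-05) and Hist1h2an at 563 and 575 at day 5 and 121 and 155 at day 7 (log2 fold change −2.05 ± 0.15, adjusted p = 5.69e-05). Relative to day 5 the list's median log2 level was 0.22 in ESCs, 0.96 in NPCs and 0.10 in X-GFP–high cells.

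The rest of the 15 largest decreases belonged to no single group. Anp32b, a histone chaperone, was at 3727 and 4379 normalized counts at day 5 and 789.9 and 833 at day 7 (log2 fold change −2.32 ± 0.09, adjusted p = 1.36e-05). Hmgn5, an X-linked nucleosome-binding protein, was at 353 and 452 normalized counts at day 5 and 84.5 and 95.5 at day 7 (log2 fold change −2.14 ± 0.17, adjusted p = 6.59e-05). Mfsd2a, a lipid transporter of the blood-brain barrier, was at 383 and 373 normalized counts at day 5 and 65.8 and 90.1 at day 7 (log2 fold change −2.28 ± 0.18, adjusted p = 6.75e-05). In these 3 genes, as in all named among the largest changes, separate days were a condition of the choice. Hpdl, a mitochondrial enzyme, fell by 2.06 ± 0.17, and Ccdc116, which was lower in all 16 ESC, NPC and day 7 libraries than in all 8 libraries of days 2 and 5, by 2.53 ± 0.19.

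Promoters of 2 replication genes and 2 ribosome assembly genes are shown as examples picked after values were seen. The E2F element TTTCCCGC is marked in the replication genes and the E-box CACGTG in the ribosome assembly genes. The matches, on either strand, are in capitals, in the same windows as above, for Cdc6 (chr11:98907901-98908200, plus strand), Mcm3 (chr1:20820263-20820562, minus strand), Pes1 (chr11:3963725-3964024, plus strand) and Nop2 (chr6:125131633-125131932, plus strand).
Cdc6: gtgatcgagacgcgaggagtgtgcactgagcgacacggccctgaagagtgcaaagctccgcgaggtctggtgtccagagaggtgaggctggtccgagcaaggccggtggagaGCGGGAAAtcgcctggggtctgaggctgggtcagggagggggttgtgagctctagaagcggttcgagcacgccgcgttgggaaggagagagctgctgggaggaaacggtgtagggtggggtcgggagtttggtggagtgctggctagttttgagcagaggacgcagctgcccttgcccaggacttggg
Mcm3: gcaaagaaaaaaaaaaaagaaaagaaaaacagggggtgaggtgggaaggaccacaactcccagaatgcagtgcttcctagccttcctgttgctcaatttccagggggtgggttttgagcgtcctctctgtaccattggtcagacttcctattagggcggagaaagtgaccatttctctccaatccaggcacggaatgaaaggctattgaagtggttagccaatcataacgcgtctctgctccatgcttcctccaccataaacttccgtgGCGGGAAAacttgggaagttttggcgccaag
Pes1: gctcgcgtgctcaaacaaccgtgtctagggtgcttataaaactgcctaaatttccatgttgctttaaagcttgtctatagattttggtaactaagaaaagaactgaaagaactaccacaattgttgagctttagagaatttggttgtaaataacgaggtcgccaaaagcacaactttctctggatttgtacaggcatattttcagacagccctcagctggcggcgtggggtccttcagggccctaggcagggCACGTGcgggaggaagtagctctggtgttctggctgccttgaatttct
Nop2: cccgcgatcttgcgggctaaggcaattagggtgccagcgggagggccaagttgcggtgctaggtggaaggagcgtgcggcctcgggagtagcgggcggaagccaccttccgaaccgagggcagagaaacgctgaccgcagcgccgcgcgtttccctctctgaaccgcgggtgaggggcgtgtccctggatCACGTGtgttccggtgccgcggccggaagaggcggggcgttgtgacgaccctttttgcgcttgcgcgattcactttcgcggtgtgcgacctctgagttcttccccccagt
The E2F element was found in 6 of 22 promoters of the replication list, or 27.3%, against 1.91% of the promoters of tested genes and 1.07% of all promoters. The E-box was found in 15 of 80 promoters of the ribosome assembly list, or 18.8%, against 9.57% of tested genes and 7.15% of all. On the replication list the E-box was found in 2 of 22 promoters, or 9.09%. On the ribosome assembly list the E2F element was found in 3 of 80, or 3.75%. Pes1 and Nop2, which act in assembly of the large subunit, fell by 0.49 ± 0.07 and 1.28 ± 0.10.

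Inhibitors of the cell cycle were mostly higher in the same libraries. Of 22 genes of the p53 and CDK inhibitor list, 15 were called higher and 1 lower, 5 higher at least 2-fold, with a median of 0.72. Relative to day 5 the list's median log2 level was 0.70 in X-GFP–negative, 0.65 in medium and 0.26 in high cells at day 7. Cdkn1b, the CDK inhibitor p27, was at 976 and 823 normalized counts at day 5 and 3724 and 3447 at day 7 (log2 fold change 2.00 ± 0.10, adjusted p = 2.2e-05). Cdkn2b, the inhibitor p15, was at 141 and 123 normalized counts at day 5 and 447 and 398 at day 7 (log2 fold change 1.67 ± 0.15, adjusted p = 8.49e-05), and Cdkn1a, the p53 target p21, at 3512 and 2653 at day 5 and 7128 and 6183 at day 7 (log2 fold change 1.12 ± 0.13, adjusted p = 0.00026). In all 3 the second day 5 library was the lowest. The pro-apoptotic p53 target Bbc3 rose by 1.36 ± 0.09 and Plk2 by 1.32 ± 0.16. The 1 lower member was Trp53 itself, which encodes p53, at 4425 and 5045 normalized counts at day 5 and 2011 and 2249 at day 7 (log2 fold change −1.15 ± 0.09, adjusted p = 6.27e-05). Other targets, such as Bax (−0.16 ± 0.08) and Sesn2 (−0.13 ± 0.07), were not called.

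**Figure D4:**
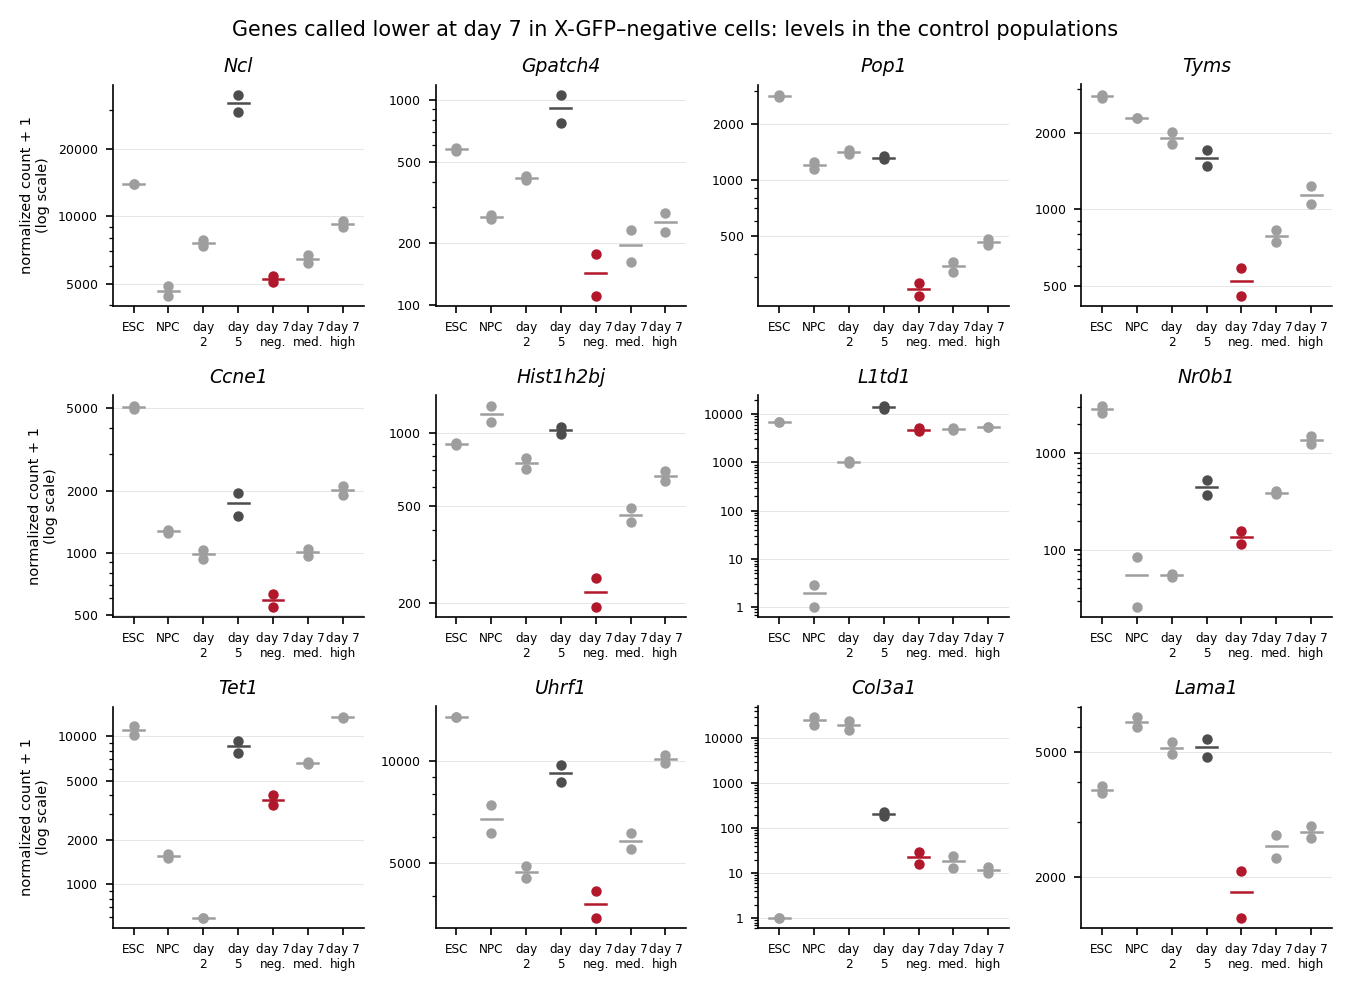
Normalized counts + 1 on a log axis of 12 genes called lower, laid out as in the plot of genes called higher, with 2 libraries per population. Tyms, Ccne1, Hist1h2bj and Uhrf1 are lowest in day 7 X-GFP–negative cells (red) and climb over medium to high, whereas Col3a1 is at its highest in NPCs and day 2 cells.

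The pluripotency network was partly lower. Of 27 naive pluripotency genes, 5 or 18.5% were called higher and 12 or 44.4% lower, against 34.2% and 29.5% of all genes. Of these, 5 were lower at least 2-fold, and the median was −0.32. Rescaled to the same total, 1 was called higher and 16 lower. The higher genes numbered 2 without day 5 replicate 1, 3 without day 7 replicate 1 and 1 without day 7 replicate 2. Nr0b1, a repressor of naive cells encoded on the X chromosome, was at 369 and 534 normalized counts at day 5 and 114 and 156 at day 7 (log2 fold change −1.73 ± 0.22, adjusted p = 0.00038). L1td1, an RNA-binding protein of pluripotent cells, was at 12817 and 14981 normalized counts at day 5 and 4485 and 5045 at day 7 (log2 fold change −1.54 ± 0.09, adjusted p = 3.52e-05), and Dppa2, which opens chromatin of early embryonic genes, at 385 and 504 at day 5 and 132 and 211 at day 7 (log2 fold change −1.40 ± 0.23, adjusted p = 0.00146). In these 3 genes both day 7 libraries were below both day 5 libraries, while 80.3% of all genes had separate days in either direction. Nr5a2 fell by 1.24 ± 0.20, Tdh, a threonine catabolic enzyme, by 1.07 ± 0.13 and Zfp42 (chromosome 8) by 0.83 ± 0.21.

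Several core members were not called or were slightly higher. Nanog was at 4184 and 4110.0 normalized counts at day 5 and 4542 and 4823 at day 7 (log2 fold change 0.17 ± 0.06, adjusted p = 0.0491), Esrrb at 3917 and 5166 at day 5 and 3560.2 and 4227 at day 7 (log2 fold change −0.21 ± 0.13, adjusted p = 0.207) and Tfcp2l1 at 6287 and 8868 at day 5 and 7596 and 8139 at day 7 (log2 fold change 0.07 ± 0.14, adjusted p = 0.675). Libraries of Esrrb and Tfcp2l1 overlapped between the days, and the small change of Nanog was not called when rescaled to the same total (0.10) or without day 5 replicate 2 (0.16) or day 7 replicate 2 (0.13). Klf5, a Krüppel-like factor of early embryos, had the largest increase of the list, at 277 and 307 normalized counts at day 5 and 535 and 449.6 at day 7 (log2 fold change 0.75 ± 0.13, adjusted p = 0.00197). Relative to day 5 the list's median log2 level was 1.60 in ESCs, −7.86 in NPCs, −4.58 at day 2, −0.32 in X-GFP–negative, 0.58 in medium and 1.40 in high cells, and no gene of the 27 decreased in level from negative over medium to high.

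Of the 4 reprogramming factors, 3 were called lower and Pou5f1 was not called. Myc was at 9666 and 8399 normalized counts at day 5 and 4100.0 and 5061 at day 7 (log2 fold change −0.98 ± 0.11, adjusted p = 0.000216), Klf4 at 9849 and 8833 at day 5 and 5312 and 6223 at day 7 (log2 fold change −0.70 ± 0.09, adjusted p = 0.000429), Sox2 at 6635 and 6915 at day 5 and 4090.1 and 5076 at day 7 (log2 fold change −0.57 ± 0.10, adjusted p = 0.00177) and Pou5f1 at 25634 and 23601 at day 5 and 22417 and 23807 at day 7 (log2 fold change −0.09 ± 0.06, adjusted p = 0.259). Reads of the inducible cassette may be counted in these genes together with those of the endogenous copies, and the table does not separate them.

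Genes of other developmental states were called in both directions, as were genes at large, at 34.2% higher and 29.5% lower. On the formative and Nodal list 3 of 14 genes were called higher and 5 lower, or 21.4% and 35.7%, with a median of 0.01 that turned to −0.07 when rescaled to the same total. Brachyury (T), the primitive streak factor, was at 473 and 755 normalized counts at day 5 and 251 and 183 at day 7 (log2 fold change −1.47 ± 0.23, adjusted p = 0.00115) and Foxd3 fell by 1.26 ± 0.22, whereas Otx2, a factor of the epiblast, rose with values of 2558 and 1461 at day 5 and 3848 and 3297 at day 7 (log2 fold change 0.88 ± 0.22, adjusted p = 0.0103) and Fgf5, its growth factor marker, by 0.68 ± 0.16. On the neural progenitor list 9 of 20 tested genes, or 45.0%, were called higher and 4 lower, with a median of 0.33. Without day 7 replicate 1 only 4 were higher. Sox9 was at 38.7 and 33.7 normalized counts at day 5 and 136 and 105 at day 7 (log2 fold change 1.70 ± 0.23, adjusted p = 0.000512) and Pax6 at 81.6 and 53.3 at day 5 and 187 and 112 at day 7 (log2 fold change 1.12 ± 0.30, adjusted p = 0.0134), both low at each day and Pax6 not called without day 7 replicate 1 (0.75), while Nfib fell by 1.00 ± 0.12 and Nes by 0.21 ± 0.06. On the mesenchymal list 4 of 13 were higher and 5 lower, or 30.8% and 38.5%, near the shares of all genes. Without day 5 replicate 2 or day 7 replicate 1 only 2 were higher. Without day 7 replicate 2 only 3 were lower. Cdh2, the N-cadherin gene, fell by 1.40 ± 0.19 and Vim, the intermediate filament vimentin, by 0.97 ± 0.10, and Tagln, an actin-binding protein of smooth muscle, rose by 1.65 ± 0.28.

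Genes were also grouped by their level in the starting and end states, from libraries outside the comparison. Among 2061 genes at least 4-fold higher in NPCs than in ESCs, 42.4% were called higher and 17.5% lower, with a median log2 fold change of 0.31. Among 1725 genes at least 4-fold higher in ESCs, 35.3% were higher and 26.9% lower, with a median of 0.10. The 11439 other genes were at 32.6% and 32.0%. With an 8-fold limit the first 2 classes were at 40.8% and 17.3% and at 36.1% and 24.5%. Of the 1697 genes that rose at least 2-fold, 1129 or 66.5% ended above the means of both ESCs and NPCs, and 1244 or 73.3% above both the X-GFP–medium and X-GFP–high means. Of the 872 that fell at least 2-fold, 518 or 59.4% ended below both ESCs and NPCs and 604 or 69.3% below both other day 7 populations. These shares use the day 7 values that made the call, so they describe the genes and test nothing.

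Immediate early genes were more often higher than lower. Of 26 genes of the immediate early and ERK list, 14 were called higher and 4 lower, 12 higher at least 2-fold, with a median of 0.61. Jun, a core subunit of AP-1, was at 1805 and 1075 normalized counts at day 5 and 8136 and 6879 at day 7 (log2 fold change 2.42 ± 0.21, adjusted p = 8.27e-05). Atf3, a stress-induced partner, was at 542 and 305 normalized counts at day 5 and 2474 and 1636 at day 7 (log2 fold change 2.30 ± 0.27, adjusted p = 0.00028), and Fos at 6422 and 4885 at day 5 and 12231 and 10882 at day 7 (log2 fold change 1.04 ± 0.12, adjusted p = 0.000275). In all 3 the second day 5 library was the lowest. Junb and Jund (both chromosome 8) rose by 1.54 ± 0.15 and 1.45 ± 0.10, Ier3 by 2.00 ± 0.17 and Dusp1, a phosphatase of stress kinases, by 1.83 ± 0.17, but the AP-1 member Fosl1 was not called (−0.12 ± 0.16). Feedback inhibitors of ERK signalling went different ways. Dusp4 (chromosome 8), Dusp5 and Spry1 rose by 1.30 ± 0.10, 1.07 ± 0.11 and 1.09 ± 0.13. Spry2 fell by 0.68 ± 0.15, and Dusp6 (−0.04) and Spry4 (−0.11) were not called. Egr1, an immediate early zinc finger factor, was not called at 0.07. From negative over medium to high X-GFP at day 7, 22 of 26 genes declined.

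Of 10 genes of the YAP output list, 7 were called higher and 1 lower, 6 higher at least 2-fold, with a median of 1.27. Ccn2, the matricellular protein CTGF, was at 1794 and 1092 normalized counts at day 5 and 7387 and 5614 at day 7 (log2 fold change 2.20 ± 0.22, adjusted p = 0.000132) and Ccn1, its paralog CYR61, at 3605 and 2276 at day 5 and 14254 and 10531 at day 7 (log2 fold change 2.10 ± 0.21, adjusted p = 0.00014). Amotl2, a binding partner of YAP, rose by 1.67 ± 0.18. In Ccn2 and Ccn1 the second day 5 library was the lowest. The member called lower was Tead1, the DNA-binding partner of YAP (−0.36 ± 0.07).

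On the list of TGF-β and BMP output 10 of 15 genes were called higher and 5 were not called, 6 were higher at least 2-fold, and the median was 0.65. The inhibitory SMADs rose, Smad7 by 1.06 ± 0.08 and Smad6 by 1.48 ± 0.47, as did Id3, a BMP target, by 1.11 ± 0.21. Smad6 had low counts and was not called without day 7 replicate 1 (1.22), and its change was 2.27 without day 5 replicate 1 and 0.69 without day 5 replicate 2. On the LIF and STAT3 list 6 of 13 were higher and 3 lower, or 46.2% and 23.1%, against 34.2% and 29.5% of all genes. The median was 0.21. Socs3, the feedback inhibitor, was at 2973 and 2929.8 normalized counts at day 5 and 5524 and 5578 at day 7 (log2 fold change 0.91 ± 0.06, adjusted p = 4.81e-05). Pim1 and Jak2 rose by 0.86 ± 0.09 and 0.77 ± 0.11, and Bcl3 fell by 0.83 ± 0.12. On the Wnt list 1 of 10 was higher and 4 lower, or 10.0% and 40.0%, with a median of −0.30. Without day 7 replicate 2 only 2 were lower. The higher gene was Rnf43, which removes Wnt receptors, at 95.1 and 47.1 normalized counts at day 5 and 392 and 279 at day 7 (log2 fold change 2.29 ± 0.32, adjusted p = 0.000622), and Ccnd1, cyclin D1, fell by 0.59 ± 0.08. Wnt8a, a ligand not on the list, was among the 15 largest decreases at 54.7 and 153 normalized counts at day 5 and 15.4 and 22.5 at day 7 (log2 fold change −2.24 ± 0.46, adjusted p = 0.00398), with the first day 5 library well below the second, and the change was −2.97 without day 5 replicate 1 and −1.51 without day 5 replicate 2.

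Maintenance and removal of DNA methylation changed in both directions. Of 14 genes 6 were called higher and 6 lower, or 42.9% each, against 34.2% and 29.5% of all genes, with a median of −0.01. Dnmt3b, a de novo methyltransferase, was at 4369.6 and 5495 normalized counts at day 5 and 1703 and 2211 at day 7 (log2 fold change −1.34 ± 0.14, adjusted p = 0.000183). Uhrf1, which guides Dnmt1 to newly replicated DNA, was at 8697 and 9750.2 normalized counts at day 5 and 3444 and 4144 at day 7 (log2 fold change −1.29 ± 0.10, adjusted p = 6.04e-05), and Tet1, which oxidizes 5-methylcytosine, at 7718 and 9355 at day 5 and 3411 and 4014 at day 7 (log2 fold change −1.20 ± 0.11, adjusted p = 9.89e-05). In each of these 3 genes both day 7 libraries were below both day 5 libraries. The days did not overlap in 80.3% of all genes, counting either direction. Dnmt1, the maintenance enzyme, fell by 0.68 ± 0.06, whereas the cofactor Dnmt3l rose with values of 505 and 674 at day 5 and 1382 and 1487 at day 7 (log2 fold change 1.30 ± 0.14, adjusted p = 0.000181). Gadd45b and Gadd45g, stress genes linked to demethylation, rose by 2.35 ± 0.18 and 2.14 ± 0.15.

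Of 25 genes of histone methylation and Polycomb, 6 were called higher and 11 lower, with a median of −0.18, and the largest changes were increases. Ezh1, the catalytic Polycomb subunit of slowly dividing cells, was at 1487 and 1224 normalized counts at day 5 and 4289 and 3957 at day 7 (log2 fold change 1.61 ± 0.10, adjusted p = 3.97e-05), while Ezh2, its counterpart in dividing cells, fell by 0.25 ± 0.07, a call lost without day 7 replicate 2 (−0.22). Kdm4b, a demethylase of H3K9, was at 1220.3 and 1005 normalized counts at day 5 and 3339 and 3309 at day 7 (log2 fold change 1.58 ± 0.10, adjusted p = 3.9e-05), and Kdm4c rose by 0.96 ± 0.09. Kmt2d, a methyltransferase of enhancers, had the largest decrease of the list (−0.76 ± 0.07).

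Of 24 imprinted genes, 14 were called higher and 6 lower, with a median of 0.46. Without day 7 replicate 1 only 3 were lower. H19, a noncoding RNA of fetal growth control, was at 3019 and 2030.2 normalized counts at day 5 and 11526 and 9538 at day 7 (log2 fold change 2.08 ± 0.17, adjusted p = 7.19e-05). Cdkn1c, the CDK inhibitor p57, was at 11.8 and 7.1 normalized counts at day 5 and 56 and 39.7 at day 7 (log2 fold change 2.24 ± 0.37, adjusted p = 0.00136). Mest, a mesodermal gene, fell with values of 1183 and 1125 at day 5 and 467 and 476 at day 7 (log2 fold change −1.29 ± 0.09, adjusted p = 5.25e-05), and Phlda2, a growth inhibitor of the placenta, by 1.27 ± 0.14. The table gives no allele of autosomal genes.

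In the X-inactivation center, 1 of 7 tested genes was called higher and 3 lower. Without day 5 replicate 1, 5 were lower. Xist was at 9180.3 and 10160.5 normalized counts at day 5 and 5946 and 6112 at day 7 (log2 fold change −0.68 ± 0.07, adjusted p = 0.000144), lower in both day 7 libraries by less than 2-fold, and Tsix, which overlaps it on the other strand, at 90.1 and 121 at day 5 and 54.9 and 60.1 at day 7 (log2 fold change −0.85 ± 0.22, adjusted p = 0.0118). The reads of overlapping antisense genes can be told apart only if the counting used strand, which is not given in the sources used here. Rlim, the activator of Xist, was at 15483 and 20005 at day 5 and 17181 and 16817 at day 7 (log2 fold change −0.05 ± 0.11, adjusted p = 0.716). Xist averaged 792 in ESCs, 10412 in NPCs, 3601 in the medium and 1504 in the high population of day 7. On the X chromosome as a whole 28.3% of 552 tested genes were called higher and 31.5% lower, with a median of −0.04.

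The deposited proportion of allelic reads that came from X mus, a fraction from 0 to 1 with 1 value per gene and population, was near 0 at both days. Over 316 X-linked genes its median was 0.0117 at day 5 and 0.00896 in X-GFP–negative cells at day 7, and its mean was 0.0413 and 0.0406. It was higher at day 7 in 111 genes, lower in 153 and equal in 52. In 2 genes it rose by more than 0.1, by 0.285 in Tmem29 and 0.167 in Cited1, and in no gene did it fall by as much. The medians were 0.110 in the medium population, 0.336 in the high population, 0.481 in ESCs and 0.00107 in NPCs. No replicate and no read number is given for these values, so that the depth behind each is unknown and no difference was tested.

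Interferon response genes had no common direction in the control arm. Of 27 tested genes 9 were called higher and 9 lower, or 33.3% each, near the 34.2% and 29.5% of all genes, with a median of 0.00 that was −0.08 when rescaled to the same total. Without day 7 replicate 1 only 4 were called higher. Tap1, the peptide transporter of antigen presentation, was at 121 and 121 normalized counts at day 5 and 345 and 295 at day 7 (log2 fold change 1.39 ± 0.15, adjusted p = 0.000187), whereas Oas1a, an antiviral sensor, was at 383 and 624 at day 5 and 224 and 217 at day 7 (log2 fold change −1.15 ± 0.21, adjusted p = 0.00243). Nlrc4, an inflammasome receptor not on the list, was among the 15 largest decreases at 107 and 145 normalized counts at day 5 and 17.6 and 18.2 at day 7 (log2 fold change −2.73 ± 0.25, adjusted p = 0.000106).

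Genes of the integrated stress response were divided, with 6 of 18 called higher and 8 lower, or 33.3% and 44.4%, and a median of −0.18. Vldlr and the factors Ddit3 (1.88 ± 0.15) and Cebpb (1.75 ± 0.15) rose. Slc7a5 (chromosome 8), a transporter of large amino acids, fell, at 4025 and 4158 normalized counts at day 5 and 1438 and 1868 at day 7 (log2 fold change −1.32 ± 0.12, adjusted p = 8.98e-05), as did Mthfd2, of mitochondrial folate metabolism, at 2096 and 1873 at day 5 and 784 and 927 at day 7 (log2 fold change −1.22 ± 0.11, adjusted p = 8.79e-05). Slc3a2, the partner subunit of Slc7a5, was not called (−0.08 ± 0.07), nor was Aldh1l2, another enzyme of mitochondrial folate metabolism (0.20 ± 0.30). Atf4 itself rose by 0.51 ± 0.08. Cholesterol synthesis was lower in 15 of 22 genes and higher in 3, with a median of −0.33: Hsd17b7 fell by 1.56 ± 0.13 and Idi1 by 1.24 ± 0.12, and Insig1, the brake on the pathway, rose by 0.67 ± 0.15.

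Of 13 protein-coding genes of the mitochondrial genome, 7 passed the filter, 6 of these were called lower, all at least 2-fold, and the median was −1.34. The other 6, among them mt-Co2 and mt-Atp6, are needed by every respiring cell but were listed at or near 0 in all 4 libraries, so that the table does not measure them. mt-Nd6 was at 2679.7 and 2852 normalized counts at day 5 and 663 and 639 at day 7 (log2 fold change −2.08 ± 0.08, adjusted p = 1.36e-05) and mt-Cytb at 40431 and 44173 at day 5 and 15192 and 17399.7 at day 7 (log2 fold change −1.38 ± 0.08, adjusted p = 3.45e-05), each with the days far apart, while mt-Co1 was at 167483 and 161866 at day 5 and 168494 and 183964 at day 7 (log2 fold change 0.10 ± 0.06, adjusted p = 0.219). The mitochondrial ribosomal RNAs, in libraries made by depletion of ribosomal RNA, were called slightly higher, mt-Rnr1 by 0.22 ± 0.05 and mt-Rnr2 by 0.19 ± 0.07, the latter not called in any fit that left out 1 library, with values from 0.17 to 0.21. Relative to day 5 the 7 genes had a median log2 level of −1.84 in ESCs, −1.31 in NPCs and −1.15 at day 2, and of −1.13 and −0.92 in X-GFP–medium and high cells.

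**Figure D5:**
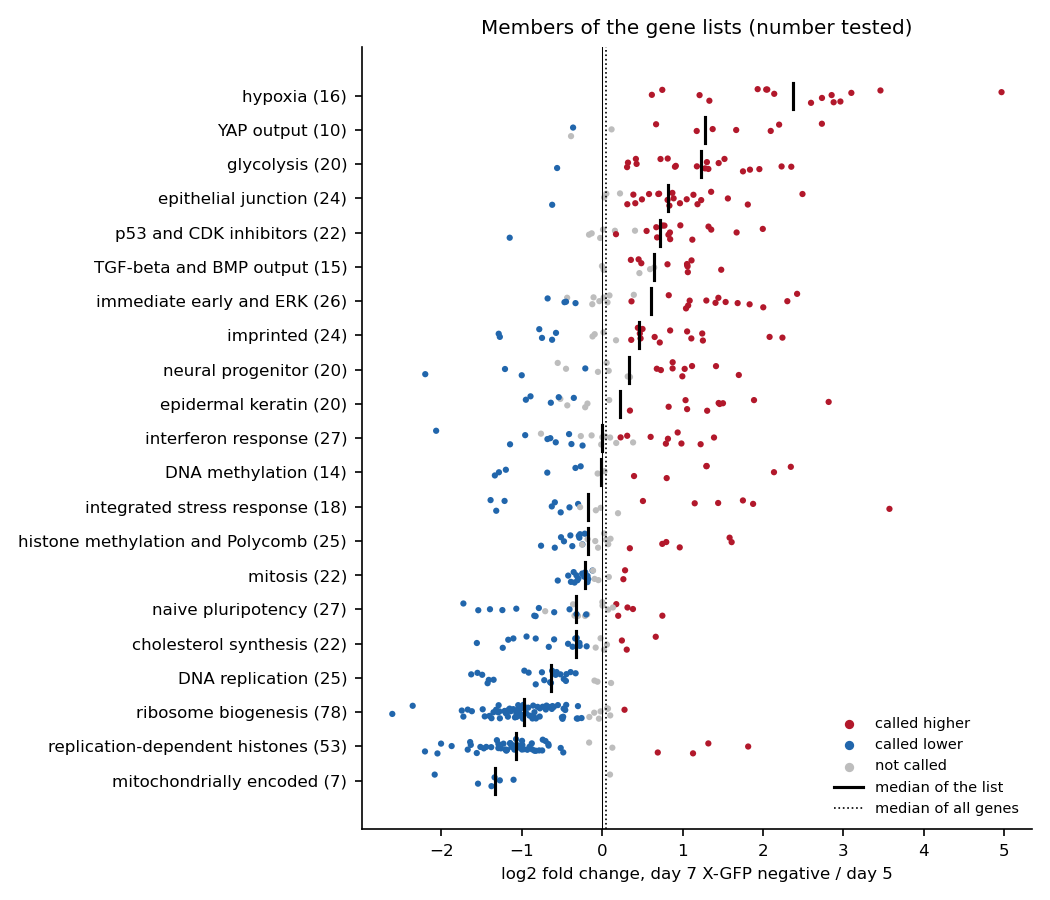
Log2 fold change from day 5 to day 7 X-GFP–negative control cells (horizontal axis) of each tested member of 21 gene lists (rows, with the number tested), colored by call; black bars are list medians and the dotted line the median of all genes at 0.04. The medians run from 2.37 for hypoxia to −1.34 for mitochondrially encoded genes.

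Markers of other cells that the sorted fraction could hold were examined. On the feeder fibroblast list 4 of 16 tested genes were called higher and 5 lower, or 25.0% and 31.3%, against 34.2% and 29.5% of all genes, with a median of 0.02 that was −0.06 when rescaled to the same total. Without day 5 replicate 1, 7 were called higher. Col3a1, a fibrillar collagen and the largest decrease of all named genes (chr1:45311538-45349706), was at 191 and 226 normalized counts at day 5 and 28.5 and 15 at day 7 (log2 fold change −3.26 ± 0.31, adjusted p = 0.000111), and Col1a1 fell by 1.40 ± 0.18, whereas Dcn, the proteoglycan decorin, was at 1148 and 611 at day 5 and 4299.7 and 3801 at day 7 (log2 fold change 2.27 ± 0.24, adjusted p = 0.000192). Fbn2, a fibrillin not on the list, was among the 15 largest decreases at 196 and 139 normalized counts at day 5 and 25.2 and 29 at day 7 (log2 fold change −2.56 ± 0.24, adjusted p = 0.000112). The feeders were male, and none of the 4 Y-linked genes passed the filter, with a highest value of 3.37 normalized counts in any of the 4 libraries. Col3a1 averaged 25323 in NPCs, 20118 in day 2 cells and 0 in ESCs. The part of feeder RNA in the values of collagen genes was not tested.

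Of 9 macrophage markers 3 were tested, Csf1r and Cd68 were called higher, and Ptprc, the leukocyte antigen CD45, was at 16 and 12.4 at day 5 and 5.49 and 13.9 at day 7 (log2 fold change −0.62 ± 0.50, adjusted p = 0.32). Cd68, a lysosomal protein of macrophages, was at 600.1 and 599 normalized counts at day 5 and 2739.6 and 2348 at day 7 (log2 fold change 2.08 ± 0.10, adjusted p = 1.85e-05). The defining markers Adgre1, C1qa, C1qb and Tyrobp were at 0.888 or below in all 4 libraries, and Lyz2, the lysozyme of macrophages, was at 8.42 and 31.1 at day 5 and at 0 in both day 7 libraries. Of 12 tested primitive endoderm genes 5 were called higher and 2 lower, or 41.7% and 16.7%, against 34.2% and 29.5% of all genes. Apoe, an apolipoprotein, rose by 1.82 ± 0.12, and Col4a1 and Col4a2 (both chromosome 8), of basement membrane, by 1.14 ± 0.07 and 1.25 ± 0.09. Lama1, a laminin chain, fell by 1.56 ± 0.15, whereas the defining factor Gata4 was at 244 and 213 at day 5 and 256 and 246 at day 7 (log2 fold change 0.14 ± 0.14, adjusted p = 0.433). Of 9 tested trophoblast genes 4, or 44.4%, were called higher and 5 were not called. Elf5, a factor of trophoblast stem cells, rose by 1.33 ± 0.31 and Gata2 by 1.22 ± 0.14. The defining factor Cdx2 was not called, at 3.37 and 17.8 at day 5 and 14.3 and 5.36 at day 7. Of 11 tested germline genes 6 were called higher and 2 lower, or 54.5% and 18.2%. In the fits without 1 library the lower ones numbered 0 to 4. The higher ones were 3 without day 7 replicate 1 and 2 without day 7 replicate 2. Of these genes Sycp3, of the meiotic chromosome axis, was at 9.26 and 10.7 normalized counts at day 5 and 25.2 and 31.1 at day 7 (log2 fold change 1.41 ± 0.34, adjusted p = 0.00881) and Piwil2, of the piRNA pathway, at 817 and 1095 at day 5 and 621 and 799 at day 7 (log2 fold change −0.42 ± 0.17, adjusted p = 0.0581). None of the 10 two-cell genes in the table passed the filter.

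The same step was compared between the arms of the study, since IFNγ had been given to the other arm up to day 5. In a limma fit with an interaction over 8 libraries and 15407 genes, the step was higher in the IFNγ arm in 2746 genes, or 17.8%, and lower in 3465, or 22.5%. Each arm had its own day 5 and day 7 libraries, so that no sample was shared. Without day 7 X-GFP–negative control replicate 1 the counts were 1634 and 2282, and after rescaling to equal totals they were 4133 higher and 2428 lower. The direction held by more genes thus turned. The median difference between the arms likewise turned from −0.01 to 0.13. No direction over all genes is drawn from it. The hypoxia list had a median step of 2.37 in the control arm and 2.11 in the IFNγ arm, which is given as a description. Adm stepped by 4.97 in the control arm and 3.38 in the IFNγ arm, a difference of −1.59 ± 0.63, adjusted p = 0.0827, and Vegfa by 3.46 in the control arm and 2.25 in the IFNγ arm, a difference of −1.22 ± 0.40, adjusted p = 0.0471. Bnip3 stepped by 2.96 in the control arm and 3.14 in the IFNγ arm, a difference of 0.18 ± 0.37, adjusted p = 0.75, and Ncl by −2.61 in the control arm and −1.81 in the IFNγ arm, a difference of 0.80 ± 0.14, adjusted p = 0.00373. The increase of Adm and Vegfa and the decrease of Ncl were larger in the control arm, and the difference of Bnip3 did not pass the test.

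Among the largest differences were T, a factor of the primitive streak, and Nos2 and Il1a, which are genes of inflammation. T, with a step of −1.47 in the control arm, was at 583 and 342 at day 5 and 2237 and 2620.1 at day 7 in the IFNγ arm, a difference of 3.91 ± 0.39, adjusted p = 0.00047. Nos2, which encodes inducible nitric oxide synthase, was at 85.8 and 27.5 normalized counts at day 5 and 520.0 and 464 at day 7 in the control arm and at 103 and 85.4 at day 5 and 79.5 and 82.2 at day 7 in the IFNγ arm, a difference of −3.52 ± 0.58, adjusted p = 0.00276. The control step of Nos2 was 4.11 without day 5 replicate 1 and 2.50 without day 5 replicate 2. Il1a was at 5.17 and 7.91 at day 5 and 10.7 and 20.8 at day 7 in the IFNγ arm, a difference of −3.24 ± 0.57, adjusted p = 0.00372. T was higher at day 7 than at day 5 in the treated libraries and lower in the control libraries, whereas Nos2 was higher at day 7 in the control libraries and slightly lower in the treated ones. Tchh and Dlx3, among the largest increases in control cells, stepped less in treated cells, with differences of −2.42 ± 0.37, adjusted p = 0.00205, and −2.54 ± 0.55, adjusted p = 0.00854. The median log2 ratio of chromosome 8 to ESCs was lower in the IFNγ arm, at −0.31 in X-GFP–negative cells, and its part in the differences of genes on that chromosome was not tested.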

How the data were processed

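Total RNA of sorted cells was sequenced by the study after ribosomal RNA depletion (TruSeq Stranded Total RNA, HiSeq 2500). The authors' methods state that paired-end reads differed in length and were trimmed to a common length. Which libraries had which length is not given in the sources used here, and its part in the division of the libraries was not tested. Per the authors' methods, reads were aligned with STAR and WASP filtering to mm10 masked at CAST/EiJ and 129S1/SvImJ variants, counted per gene with HTSeq 0.6.1 and normalized with DESeq2 size factors; the strand setting of the counting is not given in the sources used here. The deposited table holds these normalized counts, a signal in which every value came out as a whole number of reads divided by 1 factor per library (100% of values), so that reads could be recovered for count tests. A second deposited table holds, as a fraction, the authors' proportion of X mus reads for X-linked genes, with 1 value per population and no depth. The number of per-sample columns that matched no sample was 0. The 24 libraries held 24746109 to 37056508 reads.

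Identifiers were matched to symbols and positions in GENCODE vM21 (35533 of 37315, 95.22%), and promoters came from RefSeq on GRCm38.p6. Day 7 X-GFP–negative and day 5 control libraries, 2 each as labelled, were compared with limma 3.58.1 (lmFit, eBayes with trend, two-sided) on log2(normalized count + 1), for genes with a mean above 10, with Benjamini-Hochberg adjustment and a threshold of 0.1; arms were compared by an interaction term. The study's own test works on counts, but the deposited values are normalized, so counts entered only as alternatives. Genes were named where they were among the 15 largest increases or decreases that passed the threshold, reached 100 normalized counts in a group and kept the libraries of the days apart (unnamed, Gm and Rik genes left out), where they belonged to a gene list, or were among the 5 largest differences between arms in each direction. Examples from a list were picked after values were seen. The comparison, members and 34 gene lists were chosen with earlier results of these data known, and 3 lists and the hypoxia motif were added after values were seen.

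Alternatives were a pseudocount of 0.1, no filter, rescaling to the same total with or without mitochondrial genes, all 24 libraries in 1 fit, a replicate block, DESeq2 1.42.0 and edgeR 4.0.16 on recovered reads, and leaving out each replicate. After seeing the data, leaving out chromosome 8, leaving out genes that divide the library sets and a 2-fold minimum were added. Leaving out chromosome 8 or the dividing genes only took genes out of the calls, with no new fit. Those counts thus do not check the remaining genes. Scripts ran in R 4.3.3 and Python 3.11.15 and were tested on simulated data. Intervals from 2 libraries per group are wide, and no authors' comparison columns were used.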

Additional observations from a re-analysis of the deposited data

Results flagged for a closer look

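The step from day 5 to X-GFP–negative cells at day 7 differed between the arms in limma's interaction test, by being higher after IFNγ in 2746 genes and lower in 3465. Rescaled to the same total the counts were 4133 and 2428, so that the majority turned, and the median difference went from −0.01 to 0.13. The largest differences among genes that reached a mean of 100 normalized counts are given here as values. Slc44a5, a choline transporter-like gene, had a log2 difference of 5.07, with 8.42 and 13.3 at day 5 and 3.29 and 1.07 at day 7 in the control arm and 11.2 and 15 at day 5 and 102 and 141 at day 7 in the IFNγ arm. It reached 100 only in treated cells at day 7. Its control day 7 values did not exceed the floor of 3 reads per library. The control decrease was thus at least 3.34-fold, and the size of the difference is uncertain. Lhx1, a homeobox factor of the organizer, had a difference of 5.05 and was at 17.2 and 7.91 at day 5 and 144 and 167 at day 7 in the IFNγ arm, against 14.3 and 33.7 at day 5 and 8.78 and 6.44 at day 7 in the control arm. Aplnr, the apelin receptor, differed by 4.59 (IFNγ arm 43.1 and 17.4 at day 5 and 325 and 468 at day 7), T by 3.91 and Samd3 by 3.90 (IFNγ arm 6.9 and 10.3 at day 5 and 89.1 and 132 at day 7). In the other direction the difference was −3.52 in Nos2 and −3.24 in Il1a, whose control levels rose.

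The remaining differences were in interferon-induced genes, which were high in the IFNγ arm at day 5, when treatment ended, and lower there at day 7. Nlrc5 (chromosome 8), the activator of MHC class I genes, differed by −3.30, with 1466 and 1351 at day 5 and 476 and 503 at day 7 in the IFNγ arm and 66.5 and 29.3 at day 5 and 135 and 175 at day 7 in the control arm. Irf8 (chromosome 8) differed by −3.20, with 381 and 319.5 at day 5 and 87 and 106 at day 7 in the IFNγ arm, and Ifi47 by −3.08, with 404 and 386 at day 5 and 60.1 and 63.3 at day 7. Chromosome 8 levels also differed between the arms, and their part in the values of Nlrc5 and Irf8 was not tested.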

How the results depend on the processing

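The calls were made on log2(normalized count + 1) with limma on 4 libraries. Across the alternatives the number of genes called higher ran from 3833 to 5494 and of genes called lower from 3324 to 5130, each within 1.5 times of the values reported. DESeq2 on recovered whole reads called 4022 and 4045, edgeR 4880 and 4851, and without single replicates the counts ran from 3833 to 5405 and from 3324 to 4523. Whether the replicate numbers pair the samples could not be decided. With 2 libraries per group, the deviations of same-numbered libraries give only 1 correlation, 0.117 over genes, and the labels name no shared batch. With the replicate number as a block 5494 genes were higher and 4741 lower, against 5211 and 4489 without it. Between the arms the block gave 2909 and 3631, against 2746 and 3465, and it turned no direction. Of 2429 comparisons of a named gene with an alternative, 2353 kept direction and call, 27 gained the call, 31 lost it and 18 turned.

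Besides those given next, 92 counts or medians of a gene list under a single alternative moved by more than 1.5 times or by more than the spread, and those of lists whose counts changed by 2 or more genes without 1 library are given beside the lists. The nuclear respiratory chain list had 15 genes lower without day 7 X-GFP–negative control replicate 1. Genes with a higher step in the IFNγ arm numbered 4133 when rescaled to the same total (2428 lower), and 1634 to 2765 in the fits without 1 replicate (1709 without day 7 X-GFP–negative IFNγ replicate 2), and those with a lower step 2282 to 3501. The cause was not tested.

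Medians near 0 changed sign. Under rescaling to the same total, rescaling without mitochondrial genes, DESeq2 and edgeR, the median was −0.067, −0.045, −0.030 and −0.030 for the formative and Nodal list, −0.062, −0.040, −0.030 and −0.031 for the feeder fibroblast list, and −0.078, −0.056, −0.040 and −0.040 for the interferon response list. Without single replicates it ran from −0.048 to 0.030 for formative and Nodal, from −0.15 to 0.11 for feeder fibroblast, from −0.046 to 0.017 for DNA methylation and from −0.067 to 0.017 for interferon response. Genes that had not been called also changed sign. Cdh1 was at −0.054, −0.032, −0.016 and −0.016 under the same 4 settings, Cdx2 at −0.15 and −0.13 in DESeq2 and edgeR, and Egr1 and Tfcp2l1 at −0.014 and −0.0044 at the same total. Without single replicates the ranges were −0.93 to 0.75 for Cdx2, −0.16 to 0.55 for Aldh1l2, −0.31 to 0.064 for Fosl1, −0.11 to 0.24 for Egr1, −0.43 to 0.064 for Krt5, −0.23 to 0.13 for Rlim, −0.020 to 0.015 for Rpl4 and −0.17 to 0.32 for Tfcp2l1. The shifts under other scalings follow from the scaling itself.

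Depth limits genes near the filter of 10 normalized counts, where 1 read is worth about 1 unit.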

Other observations

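Nuclear genes of the respiratory chain, a list of 104 genes chosen after values had been seen, had a median log2 fold change of −0.08, against −1.34 for the tested mitochondrially encoded genes. Of the 104, 22 were called higher and 32 lower, or 21.2% and 30.8% against 34.2% and 29.5% of all genes, and 4 and 2 of them changed at least 2-fold. Rescaled to the same total 16 were higher and 47 lower, with a median of −0.16, and without day 7 replicate 1 only 15 were lower. One of the 4 was Cox6c2, a processed pseudogene and one of the 9 genes that divide days 2 and 5 from the other libraries. Cox4i2, the form of a cytochrome c oxidase subunit used in low oxygen, was at 4.21 and 4.44 normalized counts at day 5 and 17.6 and 15 at day 7 (log2 fold change 1.70 ± 0.42, adjusted p = 0.00984), next to Ndufa4l2 above. Atp5g1, a ring subunit of the ATP synthase, was at 1116 and 1202 normalized counts at day 5 and 486 and 618 at day 7 (log2 fold change −1.08 ± 0.13, adjusted p = 0.00028), and Ndufaf4, an assembly factor of complex I, at 995 and 1102 at day 5 and 381 and 485 at day 7 (log2 fold change −1.28 ± 0.13, adjusted p = 0.000164).

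Promoter motifs were also counted by call. AP-1 sites (TGANTCA) were present in 6.03% of promoters of genes called higher and 4.28% of those called lower, against 5.28% over tested genes and 7.81% over all promoters. The STAT element TTCCNGGAA was present in 19 of 633 promoters of genes lower at least 2-fold, against 1.25% over tested genes. The hypoxia core ACGTG or GCGTG was about as frequent in promoters of genes called higher, at 61.2%, as in those called lower, at 63.2%. CCAAT was present in 59.1% of promoters of the DNA replication list, against 37.5% over tested genes and 37.4% over all. These shares are descriptions of letters in fixed windows, on either strand.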
